A study of Homo sapiens with 10 samples.

Results

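The nuclear genes of the respiratory chain were followed in MIA PaCa-2 cells, a line of human pancreatic ductal adenocarcinoma, after treatment with hydroxyprogesterone caproate (HPC), a synthetic progestin. They were taken by symbol: every gene of the deposited table named as an NDUF, SDHA to SDHD, SDHAF, UQC, CYC1, COX4 to COX8 or ATP5 gene. This gave 104 of the 16734 genes in the table. They comprise 84 structural subunits (37 of complex I, 4 of complex II, 10 of complex III, 15 of complex IV and 18 of complex V), 15 assembly factors (8 NDUFAF, 4 SDHAF and 3 UQCC genes) and 5 others, namely COX7A2L, NDUFA4L2, the inhibitor ATP5IF1 and 2 readthrough genes. Of the 104, 94 had at least 1 FPKM (a fragment count scaled to gene length and library size) in 5 or more libraries and were tested: 79 subunits, 13 assembly factors, COX7A2L and ATP5IF1. The 13 subunits encoded by the mitochondrial genome are not among them and are given beside them.

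Each of the 2 groups held 5 libraries of poly(A) RNA from cells kept for 24 h, with 10 µM HPC in 1 group and an equal volume of its solvent, DMSO, in the other. All libraries came from 1 established line, 1 dose and 1 time. By the labels the 5 libraries are biological replicates, with no mention of culture days or batches, and the p-values below measure how these libraries spread. Fewer cells and less RNA per cell cannot be told apart in such data, and every value is a share of the RNA sequenced.

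Complexes I and II pass electrons from NADH and succinate to ubiquinone, complex III passes them on to cytochrome c, and complex IV passes them to oxygen. Complexes I, III and IV pump protons across the inner mitochondrial membrane, and complex V, the ATP synthase, uses the gradient to make ATP. All but complex II combine subunits of the nuclear and the mitochondrial genome, and assembly factors, which are absent from the finished complexes, bring the parts and their cofactors together.

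The libraries of DMSO held 71603127 to 82219086 reads and those of HPC 65851927 to 74477678 reads, as recovered from the deposited FPKM. A tested gene of the set had between 118 and 66973 reads in a library. The coefficient of variation within a group had a median over these genes of 3.87% in DMSO and 4.49% in HPC. Of the epithelial keratins KRT8 (49.99 to 61.4 FPKM over the 10 libraries), KRT18 (109 to 156 FPKM) and KRT19 (24.03 FPKM in DMSO and 10.1 FPKM in HPC on average) were present and KRT7 stayed at or under 0.264 FPKM. Vimentin (VIM) lay at 322 to 718 FPKM and MUC1 at or under 0.903 FPKM, while EPCAM and CDH1 stayed at or under 0.0111 FPKM. Of 9 markers of blood, endothelial, stromal, acinar and endocrine cells in the table, 8 stayed under 0.1 FPKM in all libraries. The exception was CD68, a lysosomal protein that macrophages hold in quantity, at 2.75 FPKM in DMSO and 9.77 FPKM in HPC on average. The leukocyte gene PTPRC stayed at or under 0.00291 FPKM, and the part of CD68 in the results was not tested.

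Most subunits were lower after HPC. Of the 79 tested subunits 67 were lower, 2 were higher and 10 did not pass (limma, adjusted p under 0.05 over all 9150 tested genes), with a median log2 fold change of -0.42. Over all tested genes 44.8% were lower and 42.9% were higher, with a median of -0.01. No HPC library overlapped a DMSO library for 65 of the subunits that were lower and for the 2 that were higher, against 41.1% and 38.5% of all tested genes. At a fold change of at least 1.5, 30 subunits were lower and 0 higher, against 20.3% and 16.9% of all tested genes. These counts of lower subunits include UQCRHL, a retrocopy of UQCRH whose values are uncertain, as given with complex III.

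The assembly factors were split. Of the 13 tested, 4 were lower (30.8%), 5 were higher (38.5%) and 4 did not pass, and their median was 0.060. Over all tested genes 44.8% were lower and 42.9% higher, so neither share of the factors exceeded that of all tested genes. The groups did not overlap for 3 factors that were lower and for 4 that were higher, against 41.1% and 38.5% of all tested genes. At 1.5-fold 1 factor, UQCC1, was lower and 2, NDUFAF2 and NDUFAF4, were higher, against 20.3% and 16.9% of all tested genes. The difference between factors and subunits was not tested. Of the 94 tested genes together 72 were lower, 8 higher and 14 not called.

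These directions are relative to each library's total. When each library was instead scaled to an equal sum over nuclear genes (the non-mitochondrial sum), the median of all tested genes moved from -0.01 to -0.18, a shift of -0.16, and lower genes went from 51.1% to 62.9% of all called genes. On that scale the subunit median was -0.59, and the factor median turned to -0.11. The calls of NDUFA6, NDUFB9, NDUFAF1, NDUFAF8 and COX7A2L as higher were lost there, although all 5 stayed above 0, which left 0 subunits and 3 factors higher (NDUFAF2, NDUFAF4 and UQCC2). On the lower side 75 of 79 subunits and 6 of 13 factors were called there, with NDUFAF3 (-0.20) and SDHAF2 (-0.12) added to the 4 factors that were lower. No called gene of the set changed its sign under any of the scalings run.

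**Figure D1:**
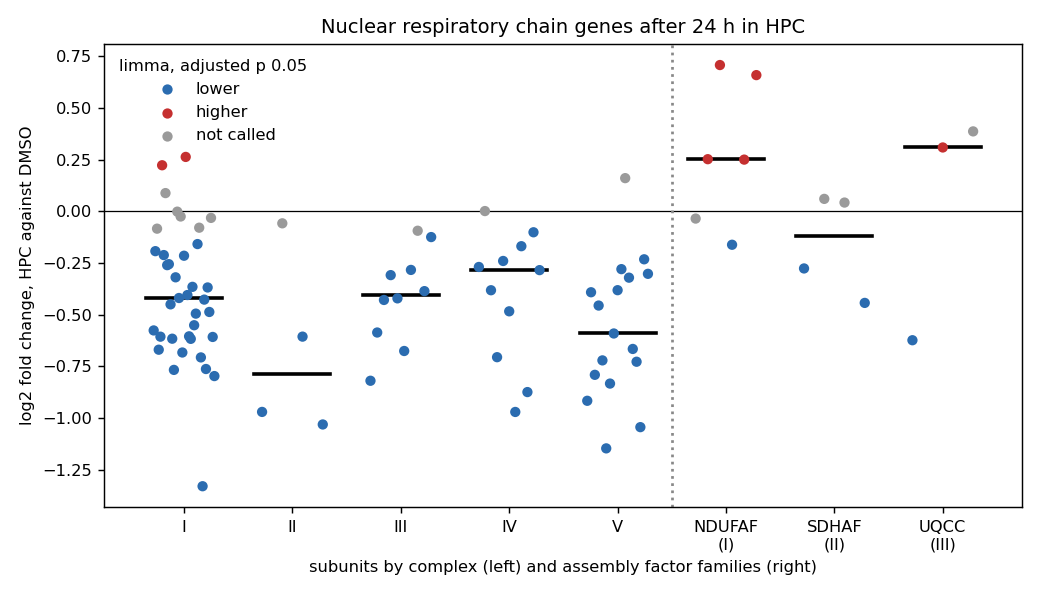
Log2 fold change of HPC against DMSO (vertical axis, on the log2(FPKM + 0.1) scale) for each tested subunit and assembly factor, with subunits grouped by complex on the left and assembly factors by family on the right; blue points were lower, red points higher and grey points not called by limma, and bars are medians. The medians of the 5 complexes lie between -0.79 (complex II) and -0.28 (complex IV), and 5 of the 7 red points belong to assembly factors.

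**Figure D2:**
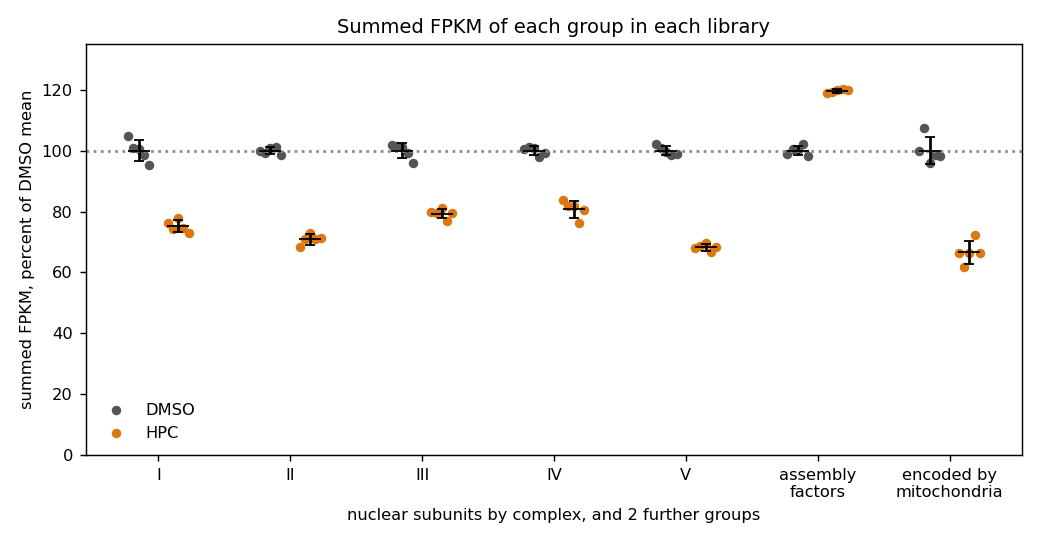
Summed FPKM of each group of genes in each library as a percent of the DMSO mean of that group (vertical axis); points are the 5 DMSO (grey) and 5 HPC (orange) libraries, and lines are means with SD. The sums of all 5 complexes fall to between 68.3% and 80.8% in HPC, that of the assembly factors rises to 120%, and the groups of libraries do not overlap in any column.

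Summed over their genes, the subunits of complex V fell most, to 68.3% of the DMSO mean (347 ± 5.24 FPKM in DMSO and 237 ± 4.11 FPKM in HPC, SD, n = 5 libraries each). Complex II fell to 70.9%, complex I to 75.2%, complex III to 79.3% and complex IV to 80.8%, so the nuclear subunits of the 5 complexes kept 75.3% of their DMSO level. The sum of the 15 assembly factors went the other way, from 73.9 ± 1.16 to 88.3 ± 0.382 FPKM. The weight of a gene in a sum depends on the gene length behind its FPKM, which is uncertain. The order of the complexes by sum is therefore uncertain too, and by median log2 fold change complex II (-0.79) fell more than complex V (-0.59). A sum is also led by its most abundant genes, and NDUFAF2 alone rose from 19.9 ± 0.4903 to 32.5 ± 0.769 FPKM. Without NDUFAF2 and NDUFAF4 the other 13 factors summed to 47.6 ± 1.23 FPKM in DMSO and 45.7 ± 0.602 FPKM in HPC, with overlapping groups. The 13 mitochondrially encoded subunits summed to 66.6% of their DMSO level, and they made up 22.6% of the FPKM total in DMSO and 14.8% in HPC, where the nuclear set made up 1.31% and 0.992%.

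Many promoters of this set are known to carry sites for NRF1, a transcription factor named for its role at respiratory genes, and for GA-binding protein, a factor of the ETS family. The 250 bases before the RefSeq start (GRCh38.p14) were searched on both strands for the NRF1 motif, GCGC and TGCGC with any 1 base between them, and the ETS motif CCGGAAG. RefSeq promoters matched 82 of the 104 genes, and matches of different motifs overlapped in 0 of them. The NRF1 letters occurred before 14 of 64 tested subunits (21.9%) and 4 of 12 tested factors (33.3%), against 12.4% of tested genes and 5.53% of all promoters. The ETS letters occurred before 17 of 64 subunits (26.6%) and 3 of 12 factors (25.0%), against 18.7% of tested genes and 8.82% of all promoters. The sites below are shown because the same letters stood before genes of the set that fell and genes that rose. Each is written 5′ to 3′ on the gene's strand, with the match in capitals and up to 10 bases on each side.
UQCC1 (lower; chr20:35412069-35412098, minus strand): gaaaacaacaGCGCGTGCGCgtagcgacct
UQCC1 (lower; chr20:35412045-35412074, minus strand): cgacctctttGCGCCTGCGCcccccttgcc
SDHD (lower; chr11:112086753-112086782, plus strand): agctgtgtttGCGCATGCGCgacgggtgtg
ATP5PO (lower; chr21:33915809-33915838, minus strand): acgccaacgcGCGCGTGCGCccttgcgcgt
UQCC2 (higher; chr6:33711729-33711758, minus strand): gaggcttagtGCGCAAGCGCcattcgtcgg
NDUFS1 (lower; chr2:206159585-206159611, minus strand): gctggggccaCTTCCGGcggaactgcg
COX6B1 (lower; chr19:35648301-35648322, plus strand): cctctctcagCTTCCGGctggt
NDUFAF4 (higher; chr6:96898022-96898048, minus strand): ccacctcccgCCGGAAGcggccctcgt

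Among called genes of the set with a RefSeq promoter, the NRF1 letters stood before 13 of 58 that were lower and 1 of 7 that were higher, and the ETS letters before 15 of 58 and 1 of 7. UQCC1, with 2 NRF1 matches 106 to 115 and 82 to 91 bases before its start, fell, and UQCC2, with 1 match 39 to 48 bases before its start, rose. Letters for YY1 (AANATGGCG, with N for any base) were found before 2 of 64 subunits (3.13%) and 1 of 12 factors (8.33%), against 2.66% of tested genes. Letters for ATF4 (TGATGNAA) were found before 1 of 64 (1.56%) and 0 of 12, against 1.18% of tested genes. A match is a run of letters and not a measured site.

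The 6 nuclear core subunits of complex I described here, which belong to the conserved proteins that carry out its electron transfer, were lower. Its 37 subunits split into 29 lower, 2 higher and 6 not called. The 3 core genes of the NADH-oxidising module at the tip of the matrix arm had log2 fold changes of -0.55 to -0.80, and the 3 described core genes of the ubiquinone-binding module behind it -0.19 to -0.45. The difference between these core genes was not tested, and accessory subunits at the tip spanned a wider range. NDUFA2 was at -0.61, while NDUFV3 and NDUFS4 were each at -0.26 and NDUFS6 (0.088) and NDUFA12 (-0.0022) did not pass.

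NDUFV1 (ENSG00000167792, chr11:67605653-67612554), which binds NADH and the flavin, measured 5.47, 5.39, 5.29, 5.04 and 4.99 FPKM in the DMSO libraries and 3.03, 3.06, 3.19, 2.93 and 2.97 FPKM in the HPC libraries (log2 fold change -0.77 ± 0.036 SE, adjusted p = 1.82e-10, limma). NDUFV2 (ENSG00000178127, chr18:9102630-9134345), its iron-sulfur partner, measured 20.6, 19.5, 19.2, 19.6 and 19.5 FPKM in the DMSO libraries and 11.3, 10.9, 10.9, 11.5 and 11.96 FPKM in the HPC libraries (log2 fold change -0.80 ± 0.031 SE, adjusted p = 2.75e-11). NDUFS1 (ENSG00000023228, chr2:206114817-206159603), the largest iron-sulfur subunit, measured 8.204, 7.81, 8.22, 8.07 and 8.26 FPKM in the DMSO libraries and 5.45, 5.34, 5.57, 5.504 and 5.66 FPKM in the HPC libraries (log2 fold change -0.55 ± 0.027 SE, adjusted p = 2.78e-10). In all 3 genes every HPC library lay below every DMSO library.

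In the ubiquinone module, NDUFS3 measured 5.06, 4.84, 5.36, 5.29 and 5.43 FPKM in the DMSO libraries and 3.88, 3.64, 4.25, 3.63 and 3.49 FPKM in the HPC libraries (log2 fold change -0.45 ± 0.051 SE, adjusted p = 1.9e-06). NDUFS7, which holds the last iron-sulfur cluster before ubiquinone, measured 1.59, 1.4996, 1.49, 1.42 and 1.45 FPKM in the DMSO libraries and 1.14, 1.12, 1.06, 0.979 and 1.12 FPKM in the HPC libraries (log2 fold change -0.43 ± 0.049 SE, adjusted p = 2.27e-06). These 2 genes fell by a similar amount, again without overlap. NDUFS8, an iron-sulfur subunit, measured 4.34, 4.26, 4.47, 4.39 and 4.05 FPKM in the DMSO libraries and 3.93, 3.997, 3.77, 3.49 and 3.57 FPKM in the HPC libraries (log2 fold change -0.19 ± 0.043 SE, adjusted p = 0.00082). Its fall was the smallest of the 6 genes, and its highest HPC library lay just under its lowest DMSO library. After a correction for transcript length and GC content its call was lost.

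The 30 accessory subunits surround the core and take no part in electron transfer. Of these 22 were lower, 2 higher and 6 not called. The NDUFB genes, which encode subunits of the membrane arm's far end, gave 10 lower and 1 higher of 11 with a median of -0.61. The NDUFA genes gave 8 lower, 1 higher and 4 not called of 13 with a median of -0.41.

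NDUFB3 (ENSG00000119013, chr2:201071433-201085750), a small membrane-arm subunit, fell more than any other tested nuclear subunit of the 5 complexes: it measured 19.4, 19.5, 17.7, 16.7 and 16.9 FPKM in the DMSO libraries and 7.102, 6.73, 7.15, 6.55 and 7.99 FPKM in the HPC libraries (log2 fold change -1.33 ± 0.059 SE, adjusted p = 1.37e-10), and kept 39.4% of its DMSO level. NDUFB10, at the intermembrane-space face, came next among the accessory subunits and measured 15.5, 16.8, 16.8, 15.5 and 15.6 FPKM in the DMSO libraries and 8.77, 10.7, 10.2, 9.09 and 8.48 FPKM in the HPC libraries (log2 fold change -0.76 ± 0.059 SE, adjusted p = 4.8e-08). Neither gene overlapped between the groups. Further falls beyond 0.6 were those of NDUFB1 (-0.71 ± 0.037 SE), NDUFA10 (-0.68 ± 0.028), NDUFA5 (-0.67 ± 0.052), NDUFB11 (-0.62 ± 0.037), NDUFB6 (-0.62 ± 0.053), NDUFA2 (-0.61 ± 0.05), NDUFB7 (-0.61 ± 0.055) and NDUFB5 (-0.61 ± 0.031). NDUFA1, with the highest FPKM of the nuclear complex I subunits, fell from 107 ± 8.45 to 71.5 ± 4.36 FPKM (SD, n = 5). The gene length implied by the FPKM values was 0.550 times the longest transcript for NDUFA1 and 1.90 times for NDUFS5. The rank of NDUFA1 is therefore uncertain. NDUFAB1, the mitochondrial acyl carrier protein, fell to 70.7% of its DMSO level.

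NDUFA6 and NDUFB9, the 2 accessory subunits that were higher, are both LYR-motif proteins, a family that binds the acyl carrier protein. NDUFA6 (ENSG00000184983, chr22:42085525-42090955) measured 9.23, 8.55, 8.37, 8.65 and 9.44 FPKM in the DMSO libraries and 10.9, 10.8, 10.7, 11.3 and 9.49 FPKM in the HPC libraries (log2 fold change 0.26 ± 0.048 SE, adjusted p = 0.000166). NDUFB9 (ENSG00000147684, chr8:124539101-124580648) measured 7.79, 7.69, 7.74, 7.299 and 7.62 FPKM in the DMSO libraries and 8.65, 8.66, 9.27, 8.81 and 9.17 FPKM in the HPC libraries (log2 fold change 0.22 ± 0.03 SE, adjusted p = 9.52e-06). The lowest HPC library lay above the highest DMSO library in both, and both calls were lost with the non-mitochondrial sum (log2 fold changes 0.096 and 0.056).

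The 6 complex I subunits that did not pass were all accessory. NDUFS6, a zinc-binding subunit of the matrix arm, measured 18.9, 18.4, 17.8, 16.5 and 18.7 FPKM in the DMSO libraries and 19.02, 18.8, 20.5, 18.2 and 19.4 FPKM in the HPC libraries (log2 fold change 0.088, 95% interval -0.00042 to 0.18, adjusted p = 0.0578). NDUFA12, which sits beside it, measured 7.74, 6.89, 7.62, 7.44 and 6.82 FPKM in the DMSO libraries and 7.496, 6.96, 7.72, 7.35 and 6.92 FPKM in the HPC libraries (log2 fold change -0.0022, 95% interval -0.10 to 0.093, adjusted p = 0.963). In both genes the groups overlapped. NDUFA8, of the intermembrane-space face, measured 59.5, 49.5, 51.5, 55.7 and 51.2 FPKM in the DMSO libraries and 53.2, 51.3, 52.4, 53.8 and 50.2 FPKM in the HPC libraries (log2 fold change -0.032, 95% interval -0.13 to 0.064, adjusted p = 0.498). NDUFA11, a membrane-arm subunit, measured 6.02, 6.35, 5.88, 6.05 and 6.42 FPKM in the DMSO libraries and 6.28, 5.92, 6.08, 5.83 and 6.05 FPKM in the HPC libraries (log2 fold change -0.026, 95% interval -0.10 to 0.044, adjusted p = 0.463). The groups overlapped for NDUFA8 and NDUFA11 too. NDUFC1 measured 2.69, 2.47, 2.41, 2.56 and 2.403 FPKM in the DMSO libraries and 2.49, 2.06, 2.62, 2.37 and 2.27 FPKM in the HPC libraries (log2 fold change -0.084, 95% interval -0.21 to 0.042, adjusted p = 0.187), and NDUFA7 measured 7.54, 6.995, 7.11, 5.69 and 7.11 FPKM in the DMSO libraries and 6.78, 6.58, 6.15, 6.63 and 6.31 FPKM in the HPC libraries (log2 fold change -0.08, 95% interval -0.22 to 0.057, adjusted p = 0.244). These 2 also overlapped. With the non-mitochondrial sum 5 of the 6 passed as lower, and NDUFS6 turned to -0.080 without a call.

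**Figure D3:**
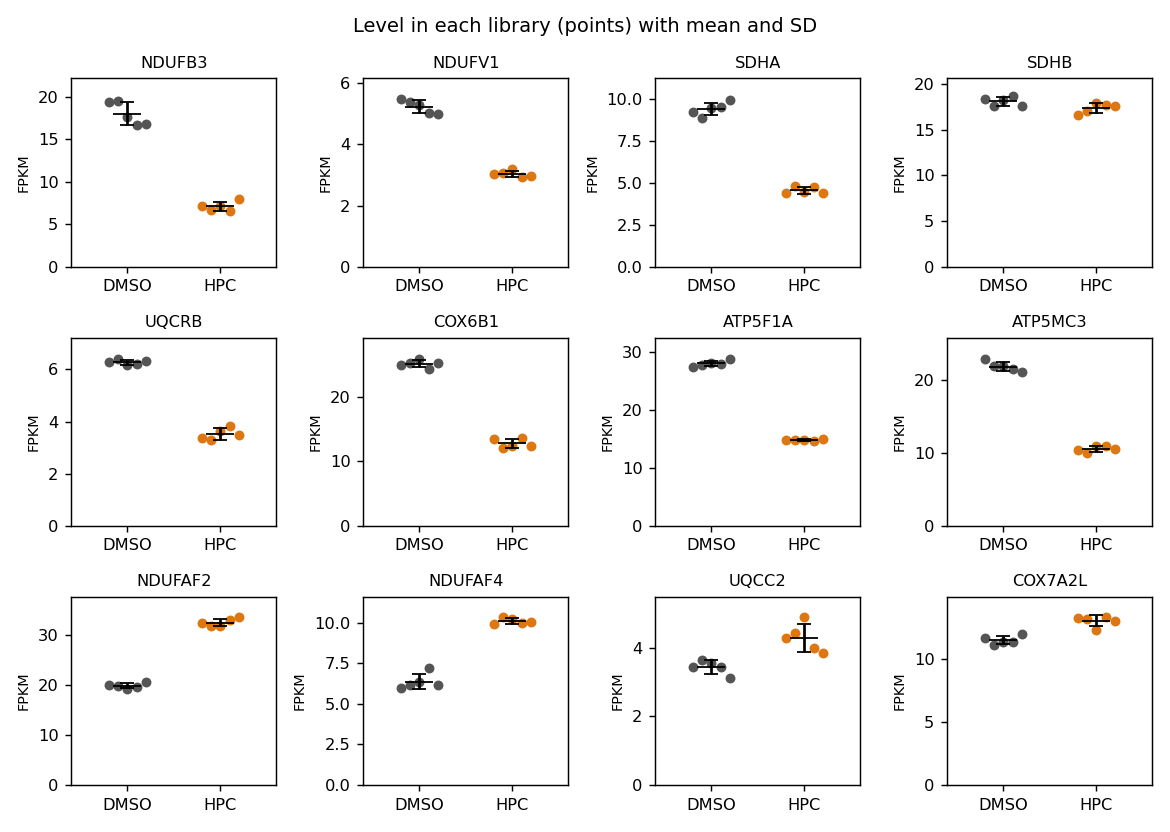
FPKM (vertical axes, from 0) of 12 genes in the 5 DMSO (grey) and 5 HPC (orange) libraries, with means and SD. NDUFB3 falls to 39.4% and SDHA to 48.4% of the DMSO mean, SDHB overlaps between the groups, and NDUFAF2, NDUFAF4, UQCC2 and COX7A2L lie higher in every HPC library.

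Complex II, succinate dehydrogenase, has 4 subunits and all are nuclear. After HPC 3 of them were lower and SDHB did not pass, and the median of the 4 (-0.79) was the lowest of the 5 complexes. SDHA (ENSG00000073578, chr5:218241-256700), the flavoprotein that oxidises succinate, measured 9.23, 8.86, 9.46, 9.47 and 9.903 FPKM in the DMSO libraries and 4.37, 4.81, 4.42, 4.73 and 4.38 FPKM in the HPC libraries (log2 fold change -1.03 ± 0.038 SE, adjusted p = 1.68e-11). SDHC (ENSG00000143252, chr1:161314257-161375340), a membrane anchor that binds heme and ubiquinone, measured 8.25, 8.64, 8.57, 8.47 and 8.401 FPKM in the DMSO libraries and 4.22, 4.09, 4.36, 4.201 and 4.49 FPKM in the HPC libraries (log2 fold change -0.97 ± 0.03 SE, adjusted p = 3.07e-12). SDHD (ENSG00000204370, chr11:112086773-112120013), the other anchor, measured 13.3, 13.6, 13.2, 13.2 and 12.6 FPKM in the DMSO libraries and 8.29, 8.89, 9.11, 8.18 and 8.65 FPKM in the HPC libraries (log2 fold change -0.61 ± 0.034 SE, adjusted p = 1e-09). All 5 HPC libraries lay below all 5 DMSO libraries in each of the 3 genes. SDHB (ENSG00000117118, chr1:17018722-17054170), which carries the iron-sulfur clusters between SDHA and the anchors, measured 18.4, 17.7, 18.3, 18.7 and 17.6 FPKM in the DMSO libraries and 16.7, 17.1, 17.99, 17.7 and 17.6 FPKM in the HPC libraries (log2 fold change -0.059, 95% interval -0.12 to 0.0017, adjusted p = 0.0633). Its groups overlapped. It passed as lower with the non-mitochondrial sum (-0.23), with TPM rescaling (-0.087), after quantile normalization (-0.12) and after length and GC correction (-0.074). On the FPKM scale SDHB stood above the other 3 in both groups. The gene length implied by the FPKM values was 11.8 times the longest transcript for SDHA and 4.87 times for SDHB. It was 1.46 times for SDHC and 5.66 times for SDHD, so the order of their levels is uncertain.

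Complex III had 9 of 10 subunits lower and 1, UQCR11, that did not pass (median -0.40). The 9 include UQCRHL, a retrocopy whose values are uncertain, as given below. It was at or above 1 FPKM in 5 DMSO libraries and 1 HPC library, so it entered the test mostly through DMSO. UQCRC1 and UQCRC2, the core proteins on the matrix side, moved alike. UQCRC1 measured 17.7, 16.9, 17.4, 16.5 and 16.7 FPKM in the DMSO libraries and 13.1, 12.8, 12.4, 12.3 and 12.8 FPKM in the HPC libraries (log2 fold change -0.42 ± 0.027 SE, adjusted p = 5.58e-09), and UQCRC2 measured 15.7, 15.6, 15.3, 15.8 and 15.1 FPKM in the DMSO libraries and 11.9, 11.6, 11.4, 11.6 and 11.004 FPKM in the HPC libraries (log2 fold change -0.43 ± 0.026 SE, adjusted p = 2.52e-09). UQCRFS1, the Rieske iron-sulfur protein, measured 38.4, 37.04, 37.1, 37.2 and 36.5 FPKM in the DMSO libraries and 29.4, 29.4, 28.1, 26.7 and 28.8 FPKM in the HPC libraries (log2 fold change -0.39 ± 0.029 SE, adjusted p = 2.38e-08). None of the 3 overlapped between the groups. CYC1, cytochrome c1, hands electrons to cytochrome c and measured 28.3, 26.2, 27.6, 26.3 and 27.1 FPKM in the DMSO libraries and 24.9, 26.3, 25.6, 23.1 and 24.5 FPKM in the HPC libraries (log2 fold change -0.13 ± 0.035 SE, adjusted p = 0.00462). It is the complex III subunit with overlapping groups among those called, and its call was lost after correction for length and GC content.

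The small subunits of complex III spanned a wider range. UQCRB, the ubiquinone-binding subunit, measured 6.299, 6.41, 6.18, 6.205 and 6.32 FPKM in the DMSO libraries and 3.36, 3.29, 3.64, 3.85 and 3.47 FPKM in the HPC libraries (log2 fold change -0.82 ± 0.04 SE, adjusted p = 2.78e-10). UQCR10 measured 16.7, 17.3, 17.96, 16.7 and 15.5 FPKM in the DMSO libraries and 11.1, 8.89, 11.6, 10.7 and 10.4 FPKM in the HPC libraries (log2 fold change -0.68 ± 0.062 SE, adjusted p = 3.3e-07). UQCR11 measured 14.7, 17.1, 16.8, 16.5 and 14.3 FPKM in the DMSO libraries and 14.9, 15.02, 16.2, 13.9 and 14.2 FPKM in the HPC libraries (log2 fold change -0.094, 95% interval -0.22 to 0.028, adjusted p = 0.131). UQCRB and UQCR10 had no overlap between the groups, and UQCR11 did. UQCRH, the acidic hinge protein, fell from 51.2 ± 1.71 to 42.04 ± 0.976 FPKM (SD, n = 5) and UQCRQ from 14.2 ± 1.18 to 11.4 ± 0.462 FPKM. UQCRHL, a near-identical retrocopy of UQCRH, was listed at 1.403 ± 0.157 FPKM in DMSO and 0.901 ± 0.1005 FPKM in HPC. How reads were divided between UQCRH and UQCRHL is not given in the sources used here, so both values are uncertain.

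Complex IV, cytochrome c oxidase, had 10 of 11 tested nuclear subunits lower and COX6A1 not called, with the smallest median fall of the 5 complexes (-0.28). COX6B1 (ENSG00000126267, chr19:35648223-35658861), which faces the intermembrane space where cytochrome c docks, measured 25.1, 25.4, 25.9, 24.3 and 25.3 FPKM in the DMSO libraries and 13.5, 12.1, 12.4, 13.6 and 12.4 FPKM in the HPC libraries (log2 fold change -0.97 ± 0.036 SE, adjusted p = 1.57e-11). COX7B (ENSG00000131174, chrX:77899438-77907373), a single-span subunit, measured 11.97, 11.7, 11.8, 12.1 and 11.7 FPKM in the DMSO libraries and 6.41, 6.52, 6.01, 6.69 and 6.43 FPKM in the HPC libraries (log2 fold change -0.87 ± 0.03 SE, adjusted p = 7.11e-12). The 2 genes kept 50.9% and 54.2% of their DMSO means, with no overlap. At the other end COX5A, an early-joining subunit, measured 20.1, 18.9, 19.9, 19.1 and 19.9 FPKM in the DMSO libraries and 18.4, 17.5, 18.4, 18.6 and 18.4 FPKM in the HPC libraries (log2 fold change -0.10 ± 0.026 SE, adjusted p = 0.00252), and COX6A1 measured 51.2, 48.8, 49.2, 48.3 and 46.6 FPKM in the DMSO libraries and 47.6, 51.3, 50.9, 46.2 and 48.2 FPKM in the HPC libraries (log2 fold change 0.00066, 95% interval -0.071 to 0.073, adjusted p = 0.985). The groups of COX5A were separate by a narrow gap, and those of COX6A1 overlapped.

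Between them lay COX7C (-0.71 ± 0.027 SE), COX6C (-0.48 ± 0.04), COX7A2 (-0.38 ± 0.033), COX5B (-0.28 ± 0.042), COX4I1 (-0.27 ± 0.023), COX8A (-0.24 ± 0.038) and NDUFA4 (-0.17 ± 0.04), the last a complex IV subunit in spite of its name. COX8A had the highest FPKM of the nuclear subunits, at 123 ± 3.27 FPKM in DMSO and 104 ± 6.39 FPKM in HPC (SD, n = 5). The gene length implied by the FPKM values was 0.975 times the longest transcript for COX8A. It was 4.85 times for ATP5F1B and 5.09 times for UQCRH, so the rank of COX8A is uncertain. Several complex IV subunits have tissue-specific paralogs, and those were at the edge of detection: COX4I2, COX6B2, COX7A1 and COX8C did not exceed 0.191 FPKM in any library. Shifts between COX4I1 and COX4I2 or between COX7A2 and COX7A1 were therefore not tested.

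COX7A2L, a relative of COX7A2 that links complex III to complex IV in supercomplexes, rose while COX7A2 fell. COX7A2L (ENSG00000115944, chr2:42333546-42425088) measured 11.6, 11.1, 11.4, 11.4 and 11.97 FPKM in the DMSO libraries and 13.3, 13.2, 12.2, 13.3 and 13.01 FPKM in the HPC libraries (log2 fold change 0.18 ± 0.03 SE, adjusted p = 8.35e-05). COX7A2 (ENSG00000112695, chr6:75237675-75250323) measured 12.4, 12.9, 12.1, 11.96 and 12.04 FPKM in the DMSO libraries and 9.51, 9.61, 9.91, 8.89 and 9.13 FPKM in the HPC libraries (log2 fold change -0.38 ± 0.033 SE, adjusted p = 1.25e-07). The ratio of COX7A2L to COX7A2 went from 0.935 ± 0.0478 in DMSO to 1.39 ± 0.0969 in HPC (SD, n = 5, exact two-sided permutation p = 0.00794, adjusted p = 0.00794 over 4 ratios). This is the smallest p that 5 libraries against 5 allow. A ratio within a library does not depend on the scaling, and it was higher in 5 of 5 HPC libraries. COX7A2L by itself moved to 0.012 and lost its call with the non-mitochondrial sum.

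ATP synthase had 16 of 17 tested subunits lower and 1, ATP5ME, not called (median -0.59), and 9 of the 16 fell by at least 1.5-fold. All 9 subunits of the catalytic head, central stalk and peripheral stalk were lower with a median of -0.72. Of 8 tested subunits of the membrane part 7 were lower, with a median of -0.49.

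In the head, ATP5F1A (ENSG00000152234, chr18:46080248-46104334), the alpha subunit, measured 27.5, 27.8, 28.1, 27.99 and 28.9 FPKM in the DMSO libraries and 14.8, 14.8, 14.9, 14.6 and 14.99 FPKM in the HPC libraries (log2 fold change -0.92 ± 0.021 SE, adjusted p = 1.72e-13). ATP5F1B (ENSG00000110955, chr12:56638175-56646068), the catalytic beta subunit, measured 86.6, 82.04, 84.6, 83.3 and 83.7 FPKM in the DMSO libraries and 66.97, 68.8, 70.1, 63.6 and 66.8 FPKM in the HPC libraries (log2 fold change -0.32 ± 0.027 SE, adjusted p = 7.68e-08). Alpha and beta form the head in equal numbers, and in these libraries the alpha transcript fell to 52.8% and the beta transcript to 80% of the DMSO mean. The rotor subunit gamma, ATP5F1C, measured 30.6, 29.5, 29.3, 29.3 and 29.8 FPKM in the DMSO libraries and 16.8, 16.8, 16.6, 16.3 and 16.6 FPKM in the HPC libraries (log2 fold change -0.83 ± 0.021 SE, adjusted p = 5.12e-13). Delta, ATP5F1D, measured 7.802, 7.89, 7.93, 7.81 and 7.83 FPKM in the DMSO libraries and 4.69, 5.25, 4.75, 4.33 and 4.53 FPKM in the HPC libraries (log2 fold change -0.73 ± 0.043 SE, adjusted p = 1.8e-09), and epsilon, ATP5F1E, measured 13.2, 14.3, 13.5, 13.7 and 13.4 FPKM in the DMSO libraries and 11.4, 10.9, 10.5, 8.99 and 10.5 FPKM in the HPC libraries (log2 fold change -0.38 ± 0.052 SE, adjusted p = 1.15e-05). No library of HPC reached the lowest DMSO library in any of the 5 genes.

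In the peripheral stalk, which holds the head still, ATP5PB fell from 34.7 ± 0.897 to 20.01 ± 0.291 FPKM and ATP5PO, the subunit at its top, from 25.2 ± 0.454 to 15.3 ± 0.384 FPKM (SD, n = 5). ATP5PF had a log2 fold change of -0.46 ± 0.048 SE. ATP5PD measured 21.2, 21.1, 19.3, 18.9 and 20.6 FPKM in the DMSO libraries and 16.8, 16.3, 16.5, 16.9 and 16.4 FPKM in the HPC libraries (log2 fold change -0.28 ± 0.033 SE, adjusted p = 3.1e-06), the smallest fall of the head and stalks. In the membrane part, ATP5MF (ENSG00000241468, chr7:99448475-99466331), subunit f, measured 14.9, 14.3, 14.6, 13.4 and 13.7 FPKM in the DMSO libraries and 6.23, 6.29, 6.66, 6.08 and 6.48 FPKM in the HPC libraries (log2 fold change -1.15 ± 0.035 SE, adjusted p = 2.99e-12). It kept 44.8% of its DMSO level, the lowest share among the tested subunits of complex V. ATP5MK, a small subunit also known as DAPIT, measured 18.1, 17.6, 17.8, 17.2 and 17.6 FPKM in the DMSO libraries and 15.2, 15.3, 15.2, 14.3 and 15.2 FPKM in the HPC libraries (log2 fold change -0.23 ± 0.025 SE, adjusted p = 1.08e-06). ATP5ME, subunit e, measured 8.15, 9.03, 7.19, 8.23 and 7.18 FPKM in the DMSO libraries and 7.23, 8.21, 9.28, 9.29 and 10.7 FPKM in the HPC libraries (log2 fold change 0.16, 95% interval -0.063 to 0.38, adjusted p = 0.155). ATP5MK separated the groups and ATP5ME did not, and the wide interval of ATP5ME covers changes in both directions. ATP5IF1 (ENSG00000130770, chr1:28236109-28246906), which inhibits ATP hydrolysis by the enzyme, measured 14.9, 14.96, 16.2, 16.02 and 14.6 FPKM in the DMSO libraries and 10.8, 10.6, 10.8, 11.4 and 10.8 FPKM in the HPC libraries (log2 fold change -0.49 ± 0.033 SE, adjusted p = 8.29e-09), a fall within the range of the subunits it acts on.

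The ring of subunit c is built from 1 mature protein encoded by 3 genes whose precursors differ in their import sequences. ATP5MC1 (ENSG00000159199, chr17:48892765-48895871) measured 4.97, 4.89, 4.84, 4.89 and 4.69 FPKM in the DMSO libraries and 3.84, 3.69, 3.93, 3.58 and 3.35 FPKM in the HPC libraries (log2 fold change -0.39 ± 0.041 SE, adjusted p = 8.47e-07). ATP5MC2 (ENSG00000135390, chr12:53632726-53677408) measured 8.83, 8.9001, 9.05, 8.46 and 8.56 FPKM in the DMSO libraries and 5.95, 5.64, 5.62, 5.96 and 5.73 FPKM in the HPC libraries (log2 fold change -0.59 ± 0.029 SE, adjusted p = 3.32e-10). ATP5MC3 (ENSG00000154518, chr2:175176258-175184607) measured 22.8, 21.8, 21.9, 21.4 and 21.1 FPKM in the DMSO libraries and 10.3, 10.02, 10.9, 10.9 and 10.5 FPKM in the HPC libraries (log2 fold change -1.04 ± 0.03 SE, adjusted p = 1.37e-12). All 3 were lower without overlap, and ATP5MC3, the highest of them on the FPKM scale, fell most. The gene length implied by the FPKM values was 11.6 times the longest transcript for ATP5MC1, 4.61 times for ATP5MC2 and 1.66 times for ATP5MC3. The order of their levels and the size of their shares below are therefore uncertain.

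Of the summed FPKM of the 3 genes, ATP5MC3 held 61.6% ± 0.450 in DMSO and 52.6% ± 1.02 in HPC, ATP5MC2 24.7% ± 0.495 and 28.9% ± 0.806, and ATP5MC1 13.7% ± 0.205 and 18.4% ± 1.01 (SD, n = 5). The ratio of ATP5MC1 to ATP5MC3 rose from 0.223 ± 0.00369 to 0.350 ± 0.0242, that of ATP5MC2 to ATP5MC3 from 0.402 ± 0.0108 to 0.550 ± 0.0221, and that of ATP5MC1 to ATP5MC2 from 0.554 ± 0.0164 to 0.637 ± 0.0455 (exact two-sided permutation p = 0.00794 and adjusted p = 0.00794 for each). Each ratio was higher in every HPC library than in any DMSO library. These and the COX7A2L ratio are the 4 paralog ratios whose genes were both tested, of 9 planned.

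**Figure D4:**
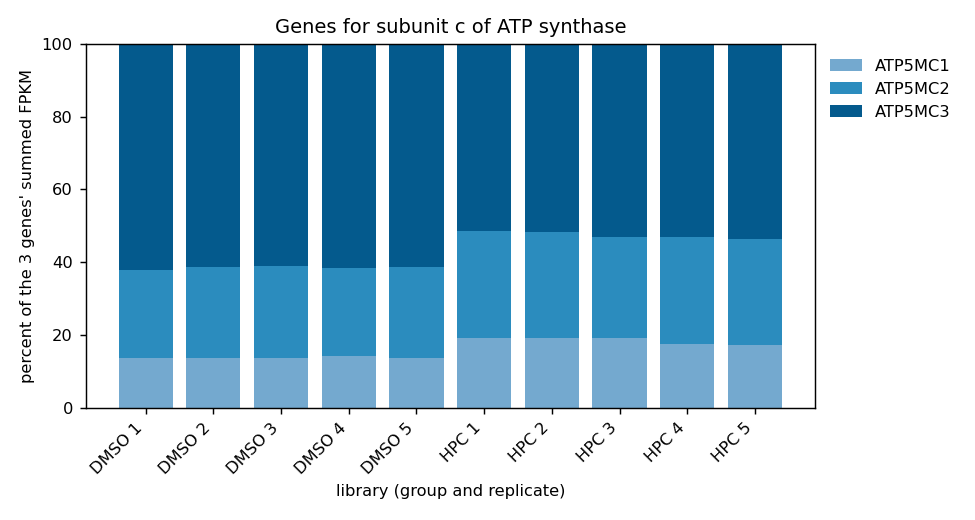
Share of each of the 3 genes for subunit c of ATP synthase in their summed FPKM (vertical axis, percent) for each of the 10 libraries (horizontal axis). ATP5MC3 takes 61.1% to 62.3% in the DMSO libraries and 51.3% to 53.7% in the HPC libraries, and the other 2 genes take the difference. The size of each share depends on the gene lengths behind the FPKM values, which are uncertain.

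Among the assembly factors of the set, 4 of the 5 called higher were NDUFAF genes. Of 6 tested NDUFAF genes 4 were higher, 1 was lower and 1 did not pass (median 0.25), against 29 of 37 lower among the subunits they help to assemble. Over all tested genes 42.9% were higher and 44.8% lower. The calls of NDUFAF1 and NDUFAF8 were lost with the non-mitochondrial sum. Of 11 complex I factors outside the symbol rule, given below, 7 were lower and 2 higher, so the NDUFAF counts do not extend to complex I factors in general. NDUFAF2 (ENSG00000164182, chr5:60945129-61153037), which stays on a late intermediate in the place that NDUFA12 takes in the finished enzyme and is its paralog, measured 20.03, 19.8, 19.3, 19.7 and 20.6 FPKM in the DMSO libraries and 32.4, 31.9, 31.7, 32.99 and 33.5 FPKM in the HPC libraries (log2 fold change 0.71 ± 0.025 SE, adjusted p = 1.1e-11). NDUFA12 itself did not pass. NDUFAF4 (ENSG00000123545, chr6:96889313-96897881), which acts with NDUFAF3 on the early matrix arm, measured 5.998, 6.14, 6.37, 7.19 and 6.18 FPKM in the DMSO libraries and 9.91, 10.3, 10.2, 9.97 and 10.1 FPKM in the HPC libraries (log2 fold change 0.66 ± 0.043 SE, adjusted p = 5.53e-09). NDUFAF3 measured 3.26, 3.47, 3.34, 3.44 and 3.62 FPKM in the DMSO libraries and 3.52, 3.196, 3.602, 3.33 and 3.07 FPKM in the HPC libraries (log2 fold change -0.036, 95% interval -0.14 to 0.065, adjusted p = 0.475). Both NDUFAF2 and NDUFAF4 lay above the DMSO range in all 5 HPC libraries and NDUFAF3 did not.

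NDUFAF1, part of the membrane-arm assembly complex, measured 3.11, 3.13, 3.44, 3.04 and 3.18 FPKM in the DMSO libraries and 3.79, 3.87, 3.63, 3.73 and 3.96 FPKM in the HPC libraries (log2 fold change 0.25 ± 0.038 SE, adjusted p = 3.75e-05). NDUFAF8, a partner of NDUFAF5, measured 4.27, 4.598, 5.02, 4.78 and 4.55 FPKM in the DMSO libraries and 5.69, 6.66, 5.903, 4.83 and 4.83 FPKM in the HPC libraries (log2 fold change 0.25 ± 0.082 SE, adjusted p = 0.0121). NDUFAF7, a methyltransferase of the mitochondrial matrix, measured 2.01, 1.85, 1.72, 2.02 and 1.89 FPKM in the DMSO libraries and 1.704, 1.804, 1.75, 1.54 and 1.63 FPKM in the HPC libraries (log2 fold change -0.16 ± 0.054 SE, adjusted p = 0.0124). NDUFAF1 was separate between the groups, and NDUFAF8 and NDUFAF7 were not. The call of NDUFAF7 was lost after quantile normalization. NDUFAF5 and NDUFAF6 were under the level for a test, at 0.602 ± 0.0476 FPKM in DMSO and 0.693 ± 0.0409 FPKM in HPC and at 0.432 ± 0.0389 FPKM in DMSO and 0.598 ± 0.0449 FPKM in HPC, and the HPC libraries lay above the DMSO libraries in both.

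Of the 4 complex II factors 2 were lower (50%) and 2 did not pass, beside 44.8% lower and 42.9% higher over all tested genes. SDHAF4, which binds SDHA once its flavin is attached, measured 10.8, 11.3, 10.7, 10.1 and 9.11 FPKM in the DMSO libraries and 7.36, 7.36, 6.87, 8.08 and 8.395 FPKM in the HPC libraries (log2 fold change -0.44 ± 0.063 SE, adjusted p = 1.91e-05). SDHAF3, which serves the iron-sulfur subunit SDHB, measured 8.698, 8.75, 8.63, 9.26 and 8.45 FPKM in the DMSO libraries and 6.88, 6.83, 7.64, 7.596 and 7.13 FPKM in the HPC libraries (log2 fold change -0.28 ± 0.038 SE, adjusted p = 1.34e-05). Neither overlapped between the groups. SDHAF2, which attaches the flavin to SDHA, measured 2.96, 3.23, 3.07, 3.31 and 2.94 FPKM in the DMSO libraries and 3.17, 2.95, 3.36, 3.102 and 3.41 FPKM in the HPC libraries (log2 fold change 0.042, 95% interval -0.061 to 0.14, adjusted p = 0.414). SDHAF1, a LYR-motif protein that also serves SDHB, measured 4.99, 4.74, 5.38, 5.95 and 5.41 FPKM in the DMSO libraries and 6.12, 5.37, 5.57, 5.21 and 5.29 FPKM in the HPC libraries (log2 fold change 0.06, 95% interval -0.069 to 0.19, adjusted p = 0.353). The groups overlapped for both.

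The UQCC genes of complex III, which help make and mature cytochrome b, went different ways. UQCC1 (ENSG00000101019, chr20:35302566-35412141) measured 1.53, 1.52, 1.56, 1.58 and 1.61 FPKM in the DMSO libraries and 0.919, 0.982, 1.005, 1.01 and 0.979 FPKM in the HPC libraries (log2 fold change -0.62 ± 0.04 SE, adjusted p = 4.32e-09). UQCC2 (ENSG00000137288, chr6:33694293-33711727), its partner protein, measured 3.44, 3.64, 3.55, 3.45 and 3.12 FPKM in the DMSO libraries and 4.29, 4.43, 4.904, 3.9997 and 3.86 FPKM in the HPC libraries (log2 fold change 0.31 ± 0.061 SE, adjusted p = 0.000336). UQCC3 measured 0.913, 1.11, 0.813, 0.775 and 0.798 FPKM in the DMSO libraries and 0.825, 1.06, 1.07, 1.96 and 1.199 FPKM in the HPC libraries (log2 fold change 0.39, 95% interval -0.035 to 0.81, adjusted p = 0.0768). UQCC1 was lower and UQCC2 higher without overlap. UQCC1 was at or above 1 FPKM in 5 DMSO and 2 HPC libraries, UQCC3 in 1 and 4, UQCRHL in 5 and 1 and NDUFS7 in 5 and 4, so these 4 genes entered the test partly through the group in which they were higher. Counts over tested genes therefore describe the tested genes only. With no filter on level, the factor median was 0.18.

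Factors outside the symbol rule were taken from lists of the textbook assembly factors of each complex. For complex I 7 of 11 were lower, 2 higher and 2 not called, from NUBPL, an iron-sulfur carrier for complex I (-1.52 ± 0.068 SE, from 2.09 ± 0.0938 to 0.664 ± 0.0779 FPKM), and FOXRED1 (-0.49 ± 0.047) to TMEM126B (0.28 ± 0.038) and TMEM126A (0.35 ± 0.058). Among the partners of NDUFAF1 in the membrane-arm assembly complex, ACAD9 was at -0.44 ± 0.044 and ECSIT at -0.31 ± 0.045, and TMEM126B was higher. The 2 genes of the same list that were not called were TMEM186 (0.088) and COA1 (0.027). For complex III 2 of 3, LYRM7 (0.27 ± 0.03) and BCS1L (0.26 ± 0.049), which deliver and insert the Rieske protein, were higher, and the call of BCS1L was lost with the non-mitochondrial sum (0.11). For complex IV 11 of 23 tested were lower and 10 higher, from COX18 (-1.27 ± 0.063) and COA3 (-0.79 ± 0.058) to COX19 (0.68 ± 0.047) and PET117 (1.02 ± 0.20). For complex V 4 of 5 were lower, with ATPAF2 (-0.79 ± 0.067) and ATPAF1 (-0.53 ± 0.029), chaperones of alpha and beta, at 1 end and FMC1 (0.41 ± 0.063) at the other. These counts stand beside 44.8% lower and 42.9% higher over all tested genes. NUBPL, FOXRED1, COX18 and ATPAF2 did not exceed 0.737, 0.883, 0.745 and 0.798 FPKM in HPC, so they entered the test through DMSO only. CMC2, counted as higher for complex IV, did not exceed 0.951 FPKM in DMSO and entered through HPC only. For these genes the filter had fixed the direction that could be called.

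The mitochondrially encoded subunits gave 10 lower, 1 higher and 2 not called of 13, from -1.85 for MT-ND3 to 0.38 for MT-ND1. Over all tested genes 44.8% were lower and 42.9% higher. After quantile normalization the counts were 7 lower, 3 higher and 3 not called: MT-ND4 (0.45) and MT-ND4L (0.065) were called higher there, the latter having been lower, MT-ND2 (-0.20) was called lower, and MT-ND5, MT-CO1 and MT-CO2 lost their calls. That method gives equal ranks equal values in every library, so these changed calls describe rank and not level. MT-ND4 averaged 1986 FPKM in DMSO and 2004 FPKM in HPC.

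How much a gene changed was at most weakly related to its level, length or GC content across the 94 tested genes. Spearman's rho of the log2 fold change was -0.205 with the DMSO level, -0.187 with transcript length and 0.208 with GC content (Pearson's r -0.201, -0.209 and 0.123). These genes share libraries and are not independent. Levels span 87.5-fold between the lowest and the highest tested subunit in DMSO. Comparisons of level between genes are uncertain, because the gene length implied by the FPKM values, relative to the longest GENCODE 29 transcript, varied 26.6-fold over the tested genes of the set.

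Several genes of the set start back to back with a neighbour on the other strand. Of 19 with a protein-coding neighbour whose start lay within 1000 bases, 11 pairs had both genes tested and 8 had both called. In 7 of these 8 (87.5%) the 2 genes moved in opposite directions, against 130 of 285 (45.6%) over all such pairs among tested genes. With the non-mitochondrial sum it was 6 of 7 against 116 of 271 (42.8%). In 6 pairs the respiratory gene was lower and its neighbour higher: NDUFB5 with MRPL47, a mitochondrial ribosomal protein, NDUFV3 with WDR4, ATP5F1C with KIN, ATP5MK with PDCD11, UQCRH with LRRC41 and NDUFB1 with CPSF2. LRRC41 and CPSF2 turned to -0.077 and -0.054 with the non-mitochondrial sum and lost their calls. On that scale SDHAF2 (-0.12) and its neighbour CPSF7 (0.12) became a called opposite pair, so the opposite pairs of the 2 scales are not all the same. NDUFAF2 was higher with its neighbour ERCC8 lower, and SDHA was lower together with CCDC127.

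The pair with the widest gap was ATP5F1C and KIN, whose starts lie 148 bases apart: ATP5F1C had a log2 fold change of -0.83 and KIN, at 1.57 ± 0.119 FPKM in DMSO and 2.35 ± 0.106 FPKM in HPC, of 0.55 (limma, adjusted p = 2.98e-07). The starts of NDUFB5 and MRPL47 lie 36 bases apart, with log2 fold changes of -0.61 and 0.30. The starts of SDHA and CCDC127 lie 26 bases apart, with -1.03 and -0.19. Whether the sequenced libraries kept strand is not given in the sources used here, so reads from overlapping first exons cannot be told apart.

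**Figure D5:**
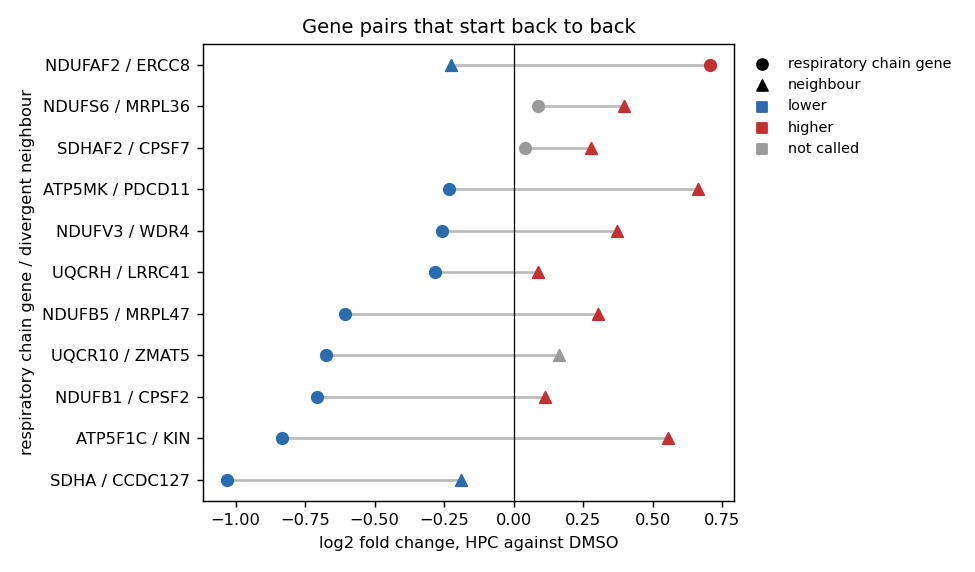
Log2 fold change (horizontal axis, HPC against DMSO) of 11 respiratory chain genes (circles) and of the tested neighbour that starts back to back with each (triangles), joined by a line; blue is lower, red higher and grey not called by limma. In 7 pairs a blue and a red symbol lie on either side of 0, and SDHA with CCDC127 is the pair with both symbols blue.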

How the data were processed

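The authors deposited FPKM values, scaled to gene length and library size, for 16734 genes in 10 libraries. Named without a role in the submitters' processing notes are the build GRCh38.p13, STAR 2.7.7a, fastp 0.23.2 and edgeR. Counter, annotation and filters are not given there. The FPKM values of all 15208 genes above 0 in at least 3 libraries were whole multiples of 1 read within 0.0001 of a read, which gave the reads per library. The scale of analysis was log2(FPKM + 0.1), which understates the change of low genes. The 9150 genes at 1 FPKM or more in 5 or more libraries were fitted together with limma 3.58.1 in R 4.3.3 (two-sided, trend and robust options), and p was adjusted by Benjamini-Hochberg over all of them, with a threshold of 0.05. The procedure was tested on simulated data. Paralog ratios were compared by exact permutation in Python 3.11.15 with SciPy 1.17.1. Coordinates are those of GENCODE 29 on GRCh38.

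The genes and lists were chosen with earlier results of these data known. 1 member is counted with its complex and its own values are not reported here. All others may be named. Values in every library were given for nuclear core subunits of complex I, SDHA to SDHD, UQCRC1, UQCRC2, UQCRFS1, CYC1, the head and c subunits of ATP synthase, ATP5IF1, tested complex IV paralogs, genes called higher or not called, and the 2 lowest and 2 highest of each complex or factor family. ACAD9, ECSIT, TMEM186, COA1 and the neighbouring genes fall outside that rule and were chosen after their values were seen. Alternatives changed the pseudocount, filter, scaling, variance model, test, length and GC correction, replicate block, threshold and libraries.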

Additional observations from a re-analysis of the deposited data

Results flagged for a closer look

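In 9 of 198 groups of 5 libraries, 1 library stood apart from the other 4 of its group by Dixon's criterion, which flags about 1 group in 20 by chance. In HPC replicate 4 this held for 4 genes. There ATP5IF1 was high at 11.4 FPKM (others 10.6 to 10.8), while NDUFA9 was low at 5.31 FPKM (others 5.82 to 5.94), COX5B low at 22.4 FPKM (others 25.8 to 26.7) and ATP5MK low at 14.3 FPKM (others 15.2 to 15.3). HPC replicate 2 was low for NDUFS5 at 63.8 FPKM (others 68.0 to 69.2) and for COX5A at 17.5 FPKM (others 18.4 to 18.6). DMSO replicate 5 was low for NDUFA1 at 92.0 FPKM (others 108 to 112) and for NDUFB7 at 27.2 FPKM (others 30.1 to 30.9). DMSO replicate 2 was high for NDUFB1 at 6.29 FPKM (others 5.71 to 5.77). All 9 genes were called lower, and each kept that direction and call when the library in question was left out.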

How the results depend on the processing

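Of 80 called genes, 72 kept direction and call in every setting in which they were tested. The other 8 kept direction and lost a call: NDUFA6, NDUFB9, NDUFAF1, NDUFAF8 and COX7A2L with the non-mitochondrial sum, NDUFAF7 after quantile normalization (-0.094), and NDUFS8 (-0.073) and CYC1 (-0.045) after length and GC correction. The non-mitochondrial sum gave 75 subunits and 6 factors lower, 0 subunits and 3 factors higher, a subunit median of -0.59 and a factor median of -0.11, which reversed. The factor median was 0.18 with no filter, 0.17 after length and GC correction and 0.10 without DMSO replicate 4, with a leave-one-out range of 0.039 to 0.10. A filter of 5 FPKM left 2 factors lower and 2 higher. At 1.5-fold 30 subunits were lower and 0 higher, and 1 factor was lower and 2 higher. The cause of these changes was not tested beyond the smaller number of genes under the stricter filter and threshold.

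Signs reversed for genes near 0, all uncalled on the deposited scale. These were COX6A1 with TPM rescaling (-0.028), the non-mitochondrial sum (-0.17), quantile normalization (-0.16) and single libraries left out (range -0.0172 to 0.020), and NDUFA12 with voom on recovered reads (0.011), length and GC correction (0.013) and single libraries left out (range -0.026 to 0.019). NDUFAF3 reversed with quantile normalization (0.0032) and length and GC correction (0.041), SDHAF2 with the non-mitochondrial sum (-0.12) and length and GC correction (-0.0035), NDUFA11 with the latter (0.065), NDUFA8 without DMSO replicate 1 (range over single libraries left out -0.059 to 0.00660), and SDHAF1 (-0.11), NDUFS6 (-0.080) and ATP5ME (-0.0061) with the non-mitochondrial sum. Calls as higher were gained by SDHAF1 (0.17) and NDUFS6 (0.10) after length and GC correction, by NDUFS6 (0.10) and UQCC3 (0.43) with voom, and by UQCC3 (0.51) after quantile normalization. Leaving out single libraries gave 67 to 69 subunits lower and 2 to 3 higher, and 4 factors lower and 5 to 6 higher.

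With the replicate number as a block, 67 subunits were lower and 3 higher, and 4 factors were lower and 5 higher. The labels give the numbers no shared origin, and deviations of same-numbered libraries correlated at -0.0593, 0.0660, 0.199, 0.0165 and 0.136, so they were not treated as pairs.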

Other observations

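Genes that feed or carry electrons beside the complexes were also split. CYCS, the cytochrome c that shuttles electrons from complex III to complex IV and has a further role in cell death, stood at 34.1 ± 1.44 FPKM in DMSO and at 74.8 ± 4.86 FPKM in HPC (SD, n = 5), a rise of 1.13 on the log2 scale (SE 0.044, limma, adjusted p = 2.99e-11), while the subunits on both sides of it were mostly lower. Of the 3 other tested genes that bring electrons to ubiquinone, SQOR, which oxidises sulfide, had a log2 fold change of -0.98, ETFDH, which serves fatty acid oxidation, of -0.79, and GPD2, of the glycerol phosphate shuttle, of -0.32, and all were called lower. DHODH was under the level for a test, at 0.960 ± 0.0503 FPKM in DMSO and 0.755 ± 0.0521 FPKM in HPC.

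Of 7 tested transcriptional regulators of respiratory genes, 3 were higher (42.9%), 2 lower (28.6%) and 2 not called, beside 42.9% higher and 44.8% lower over all tested genes. The subunits of GA-binding protein rose, GABPB1 by 0.71 and GABPA by 0.32 on the log2 scale, and so did the coactivator PPRC1 (0.50). PPARGC1B, of the same list, was under the level for a test, at 0.453 ± 0.0134 FPKM in DMSO and 0.213 ± 0.0287 FPKM in HPC. Its HPC libraries all lay below its DMSO libraries. YY1 fell by 0.38 and NRF1 by 0.24 (its call was lost after quantile normalization, at -0.11), and TFAM (-0.013) and ESRRA (0.0017) did not pass. NRF1, at 1.05 to 1.18 FPKM in DMSO and 0.856 to 1.00 FPKM in HPC, entered the test mostly through DMSO. Some factors of complex III stand in the table under older symbols and so fall outside the symbol rule. Of these UQCC4 (0.62) and UQCC5 (0.61) were called higher, and UQCC6, at 0.517 ± 0.0701 FPKM in DMSO and 0.594 ± 0.215 FPKM in HPC, was not tested.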
